A study of Mus musculus with 3 samples.

Results

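The matrix and integrin genes examined here are those that encode collagens, laminin chains, integrins, ADAMTS and ADAMTS-like proteins, matrix metalloproteinases (MMPs), their tissue inhibitors (TIMPs), fibulins, fibrillins and tenascins. They were picked out by gene symbol, from regions that the deposited tables list as different in 5-hydroxymethylcytosine (5hmC) between folate-deficient and control cells. Earlier results of these data were known when the families were chosen. Of 19817 listed regions, 186 were assigned to a gene of these families, and of the 9293 gene symbols with a listed region, 69 were members. The gene annotation holds 147 symbols that match the same rule, so 78 members had no listed region and no value here.

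5hmC, the oxidised form of 5-methylcytosine, was measured by hMeDIP-seq, in which an antibody pulls down hydroxymethylated DNA fragments for sequencing. The cells were mouse embryonic stem cells (mESCs) of the Sv129 line. The control cells were kept in medium with folate at 4 mg/L (FA4), and the folate-deficient cells in medium with folate at 0 mg/L (FA0). The labels name no genetic change, and the growth medium held fetal bovine serum. The series holds 3 samples, of which the FA4 and FA0 immunoprecipitates carry values and the FA0 input was not used here. With 1 library per condition there is no replicate check, so a read test sets 1 library against the other, and conditions were not tested. The tables hold DNA enrichment and no expression, so the mESC label could not be set against marker genes.

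The extracellular matrix is the network of proteins that cells secrete and attach to. Collagens give it tensile strength, laminins and type IV collagens form the basement membrane under epithelia, and integrins are the transmembrane receptors that tie this network to the cytoskeleton. MMPs and ADAMTS proteases cut matrix proteins, TIMPs block MMPs, and the basement membrane is among the earliest matrix structures that the embryo lays down. TET enzymes make 5hmC from 5-methylcytosine, which in mammals lies mostly at CpG dinucleotides.

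CpG sites are therefore shown for the start sites of 6 of the 9 members with a listed promoter region. Each sequence runs from 250 bases before to 50 bases after the start, 5′ to 3′ on the strand of the gene, with every CpG (CG, which reads the same on both strands) in capitals. Sequences are from RefSeq, build GRCm38.p6, the same assembly as the mm10 build of the tables. The windows lie at chrX:20869916-20870215 (plus strand) for Timp1, chr10:86300162-86300461 (plus) for Timp3, chr6:115252156-115252455 (minus) for Timp4, chr2:128863682-128863981 (plus) for Fbln7, chr10:77166481-77166780 (minus) for Col18a1 and chr2:155775092-155775391 (plus) for Mmp24. The 3 TIMP genes and Fbln7 had promoter regions higher in FA0, Col18a1 and Mmp24 had promoter regions higher in FA4.
Timp1: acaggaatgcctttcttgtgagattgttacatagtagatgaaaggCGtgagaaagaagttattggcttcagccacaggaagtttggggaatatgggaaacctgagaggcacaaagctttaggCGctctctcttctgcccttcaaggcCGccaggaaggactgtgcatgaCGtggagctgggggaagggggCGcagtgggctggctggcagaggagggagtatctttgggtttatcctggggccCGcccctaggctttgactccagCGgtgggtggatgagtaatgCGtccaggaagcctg
Timp3: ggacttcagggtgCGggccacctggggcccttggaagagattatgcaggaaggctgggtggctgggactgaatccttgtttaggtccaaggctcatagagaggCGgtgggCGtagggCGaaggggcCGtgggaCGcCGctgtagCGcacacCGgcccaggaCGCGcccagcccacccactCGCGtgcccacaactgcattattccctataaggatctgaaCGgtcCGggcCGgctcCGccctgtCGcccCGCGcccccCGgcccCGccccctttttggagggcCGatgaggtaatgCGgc
Timp4: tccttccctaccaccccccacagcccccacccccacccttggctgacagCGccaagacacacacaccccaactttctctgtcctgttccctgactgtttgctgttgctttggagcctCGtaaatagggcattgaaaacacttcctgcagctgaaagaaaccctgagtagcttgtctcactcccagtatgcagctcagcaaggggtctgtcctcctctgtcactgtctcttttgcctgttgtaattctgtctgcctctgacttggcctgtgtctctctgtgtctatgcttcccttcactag
Fbln7: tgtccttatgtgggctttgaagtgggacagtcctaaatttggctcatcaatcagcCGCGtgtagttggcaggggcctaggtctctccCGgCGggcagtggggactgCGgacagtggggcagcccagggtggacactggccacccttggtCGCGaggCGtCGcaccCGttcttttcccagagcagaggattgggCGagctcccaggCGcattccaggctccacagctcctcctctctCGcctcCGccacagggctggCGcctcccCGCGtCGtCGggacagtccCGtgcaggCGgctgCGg
Col18a1: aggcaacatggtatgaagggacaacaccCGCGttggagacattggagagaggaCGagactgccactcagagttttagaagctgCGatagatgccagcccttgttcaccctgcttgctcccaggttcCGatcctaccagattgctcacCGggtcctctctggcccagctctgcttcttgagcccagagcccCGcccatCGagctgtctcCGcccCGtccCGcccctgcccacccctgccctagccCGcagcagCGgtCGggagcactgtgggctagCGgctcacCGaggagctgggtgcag
Mmp24: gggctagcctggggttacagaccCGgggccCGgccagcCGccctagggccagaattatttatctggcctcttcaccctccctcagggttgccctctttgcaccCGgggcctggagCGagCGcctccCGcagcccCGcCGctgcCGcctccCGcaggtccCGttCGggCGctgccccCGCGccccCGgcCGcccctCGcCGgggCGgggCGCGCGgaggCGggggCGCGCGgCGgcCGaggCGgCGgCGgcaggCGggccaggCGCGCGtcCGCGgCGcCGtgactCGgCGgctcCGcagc
The window of Mmp24 held 44 CpGs, and 2.25% of all 32851 promoter windows held as many. Timp3 held 24 (20% of windows held as many), Fbln7 22 (23.1%), Col18a1 16 (33.0%), Timp1 8 (48.6%) and Timp4 2 (85.9%), against a median of 7 over all windows with quartiles of 3 and 20. The genes shown with promoter regions higher in FA0 thus ran from 2 to 24 CpGs, and the counts of the genes on either side overlapped. Col19a1 (16, higher in FA0) and Col1a2 (13, higher in FA4) also matched a window, and Mmp2 is named only. The Timp1 window shared 175 bases with its listed region. The other windows did not touch theirs, with gaps of 566 bp to 1400 bp, because the tables call a region promoter up to a wider distance from the start.

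Of the 186 regions, 75 had more FA0 signal and 111 more FA4 signal, so 40.3% (33.2% to 47.7%, exact Clopper-Pearson, counting error only) were higher in FA0. Over all listed regions the share was 38.9%, which lies inside that interval. With FA0 scaled up by 25%, 60.5% of the member regions that were left were higher in FA0, and 26% with FA4 scaled up. Unlisted regions have no values, so scaling 1 library up could only remove listed regions higher in the other. The direction of these shifts was therefore fixed in advance, and they are not a new listing at another scaling. Every listed region passed p at 1e-04 in a G-test of its 2 normalized counts and a fold of 2, limits that were read from the values. The methods state looser limits for 5hmC, so the rule by which the tables were made is not settled. Regions were listed for their difference, so the ratios below are descriptions, and this choice makes them too large. Values are given as reads, recovered from the deposited normalized counts, in which 1 FA4 read is worth 0.866 and 1 FA0 read 1.15. Ratios are of normalized counts with 95% exact binomial intervals, and a ratio against 0 reads is given as at least the value against a floor of 3 reads. Intervals cover counting error only, since PCR copies are not separate molecules.

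Most member regions rested on few reads. Regions higher in FA4 held a median of 15 FA4 reads, and 90 of the 111 held 0 FA0 reads (81.1%, against 81.1% over all listed regions higher in FA4). Those higher in FA0 held a median of 17 FA0 reads and at most 33, and 21 of the 75 held 0 FA4 reads (28.0%, against 32.4%). An exact two-sided binomial test on the reads at the same threshold of 1e-04 was passed by 58 of the 75 regions higher in FA0 and by 25 of the 111 higher in FA4. The background is 74.6% of all listed regions higher in FA0 and 26.2% of those higher in FA4, so the members lay near it in both directions. Against 0 reads the test needed at least 17 FA4 reads or 11 FA0 reads among members, and most FA4-higher regions held fewer.

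**Figure D1:**
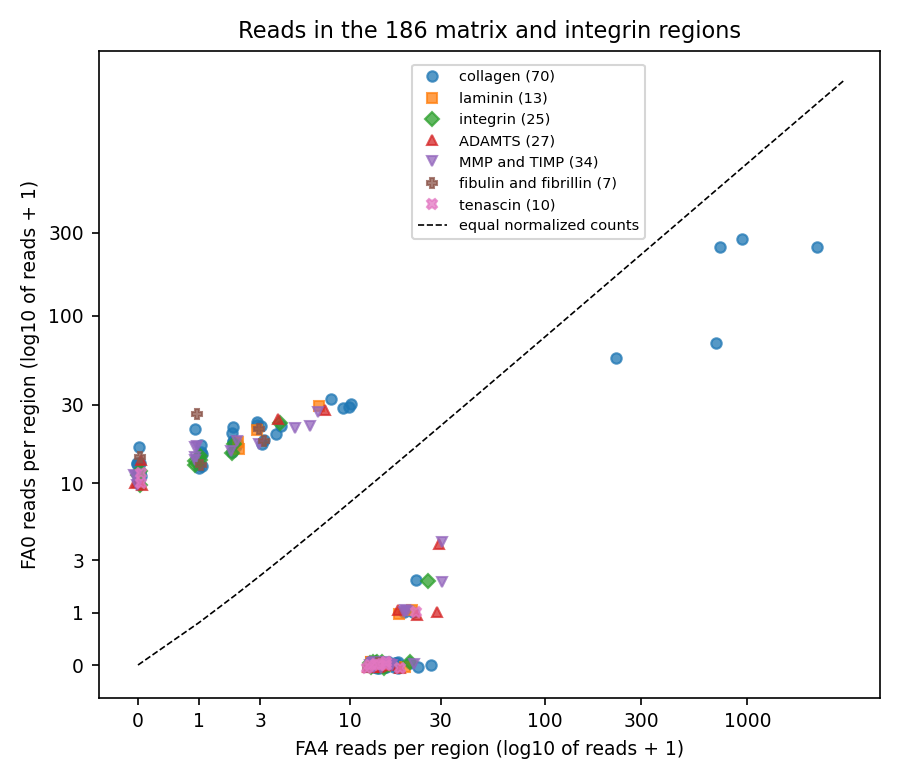
Reads of each of the 186 regions in FA4 (x axis) and FA0 (y axis), both as log10 of reads + 1, with 1 point per region (points are moved slightly apart) and the line of equal normalized counts. All other points lie at 33 reads or fewer in both libraries, and the 5 intergenic regions of Col19a1 stand alone at 220 to 2135 FA4 reads.

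The 5 intergenic regions assigned to Col19a1, a collagen of the FACIT class that attaches to other fibrils, stood apart in depth. They held 220, 942, 2135, 707 and 700 FA4 reads against 55, 269, 258, 250 and 72 FA0 reads, 24.4 kb to 28.5 kb before the start of the gene. The regions at chr1:24612181-24612780 and chr1:24612661-24614580 overlap and share reads. What gave this depth was not tested, so these values are not read as 5hmC of Col19a1. Without these 5 regions, 75 regions had more FA0 signal and 106 more FA4 signal (41.4%), no region higher in FA4 held more than 31 reads, and 20 of the 106 passed the exact test. The promoter region of Col19a1 (chr1:24586141-24586820) went the other way, with 0 FA4 reads and 11 FA0 reads.

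Collagens were the largest family, with 70 regions of 23 genes split evenly into 35 higher in FA0 and 35 in FA4 (35 and 20 with FA0 scaled up by 25%, 19 and 35 with FA4 scaled up). The exact test was passed by 28 of the FA0-higher and 14 of the FA4-higher regions, or by 9 of 30 FA4-higher regions without the Col19a1 intergenic regions. The collagen classes differed in their split. Basement membrane collagens had 9 regions on the FA0 side and 2 on the FA4 side, transmembrane collagens 7 and 2, and collagen VI, which forms beaded microfibrils, 8 and 5. Fibrillar collagens had 4 and 8, the FACIT class 4 and 14, and the short-chain collagens Col8a1 and Col10a1 0 and 3. Of the 14 FA4-higher FACIT regions, 5 are the Col19a1 intergenic regions, which are not read as 5hmC of that gene. These differences between classes were not tested, since several regions of a class belong to 1 gene or locus.

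Col4a1 and Col4a2 encode the chains of the main basement membrane collagen and are transcribed away from each other from a shared start on chromosome 8. Their 10 regions were split 9 to 1 in favour of FA0. The 3 Col4a1 regions held 2, 1 and 0 FA4 reads against 18, 18 and 17 FA0 reads. The Col4a2 regions higher in FA0 held 4, 2, 3, 10, 9 and 4 FA4 reads against 22, 17, 23, 29, 29 and 20 FA0 reads, and the remaining region held 14 and 0. So FA0 was higher in 9 of the 10 listed regions of the locus, and 8 of the 9 passed the exact test (3 of the 9 remained with unscaled reads). The Col4a1 region upstream of its start (chr8:11324921-11325520) lies inside Col4a2 and was at least 7.56-fold higher in FA0 (exact p = 5.55e-07). The 2 intergenic Col4a2 regions, about 141 kb before its start, lie beyond the 3′ end of Col4a1. Other listed regions within 1 Mb of Col4a1 or its own listed regions also ran to FA0, 19 against 8. Those counted in the same way around Col4a2 were 16 against 7. These 2 counts overlap, and each includes the regions of the partner gene. Those are 6 and 1 for Col4a2, and 3 and 0 for Col4a1. On chromosome 8 as a whole 32.3% of listed regions were higher in FA0, while 15 of the 22 member regions there were (68.2%). Of these 22, 10 are the Col4a1 and Col4a2 regions themselves, so that share rests largely on 1 locus. The other members there, as FA0-higher and FA4-higher regions, were Adamts18 (2 and 1), Itgb1 (1 and 5), Mmp2 (2 and 0) and Mmp15 (1 and 0).

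Col13a1, a transmembrane collagen, had 6 regions and all were higher in FA0. They held 3, 1, 0, 2, 1 and 2 FA4 reads against 23, 13, 12, 17, 13 and 17 FA0 reads, and 4 of the 6 passed the exact test. Regions were listed for a difference, so a gap between the 2 counts of each region is fixed by the listing itself. The most deeply read region (chr10:61839661-61840580, an intron close to the 3′ end) had a ratio of 10.2 (3.09 to 53.2). Around Col13a1, too, 16 other listed regions within 1 Mb were higher in FA0 and 4 in FA4.

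Some other collagens, of several classes, had 1 or 2 regions each. Col2a1, the cartilage collagen, had an exon region (chr15:97988861-97989800) with 3 FA4 reads and 24 FA0 reads (ratio 10.7, 3.24 to 55.3). Its upstream region held 2 and 21. Col1a2, a chain of type I collagen, had a promoter region with 13 FA4 reads and 0 FA0 reads, which did not pass the exact test. Col15a1, a basement membrane-associated collagen of the multiplexin class, had an intron region (chr4:47227441-47228680) with 1 FA4 read and 21 FA0 reads (ratio 28.0, 4.50 to 1160). Another of its intron regions held 0 and 14. The multiplexin Col18a1, the precursor of endostatin, had a promoter region (chr10:77164801-77165380) with 18 FA4 reads and 0 FA0 reads, at least 4.50-fold higher in FA4. Its intergenic region, 33.5 kb before the start, went the other way with 3 FA4 reads and 18 FA0 reads. Of the member regions higher in FA0, the most reads lay upstream of Col6a1, with 8 FA4 reads and 33 FA0 reads.

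Col6a5 and Col6a6 lie side by side on chromosome 9 and were mixed. Their 11 regions divided into 6 on the FA0 side and 5 on the FA4 side, with FA0 reads of 10 to 22 in the former and FA4 reads of 13 to 18 in the latter. The Col6a6 exon region (chr9:105785701-105786160) held 0 FA4 reads and 13 FA0 reads. Of the 7 regions that the tables give to Col6a5, 3 lie inside the annotated Col6a4. Col22a1, a FACIT collagen of tissue junctions, had 5 regions, all higher in FA4 with 0 FA0 reads. They held 22, 15, 14, 17 and 26 FA4 reads, 3 of them passed the exact test, and the last was at least 6.50-fold higher (chr15:72276561-72277720). Other listed regions within 1 Mb of Col22a1 were 8 higher in FA0 and 3 in FA4, the opposite balance.

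Laminins are trimers of an alpha, a beta and a gamma chain, and the regions divided by chain. All 8 regions of the alpha chains Lama1, Lama2 and Lama4 were higher in FA4, with 13 to 21 FA4 reads and 0 or 1 FA0 reads. Of the 5 regions of Lamb1, Lamc1 and Lamc3, 4 were higher in FA0 and 1 in FA4. The 4 FA0-higher beta and gamma regions all passed the exact test, and the FA4-higher one (Lamb1, 13 and 0 reads) did not. Of the 8 alpha regions 1 passed, in a Lama2 intron (chr10:27042021-27043840, 20 FA4 reads and 0 FA0 reads, exact p = 1.50e-05). Over all listed regions, 74.6% of those higher in FA0 and 26.2% of those higher in FA4 passed, so passing went with direction. Lamc3 had the most FA0 reads of the family, 29 against 7 FA4 reads in a region 17.6 kb upstream (chr2:31869141-31870260, ratio 5.52, 2.37 to 14.9). Lamc1, the most widely used gamma chain, held 3 FA4 reads and 21 FA0 reads in an intron. The Lama4 exon region (chr10:39032301-39033860) held 21 FA4 reads and 1 FA0 read (ratio 15.8, 2.53 to 651). The alpha chain genes with regions are few, so the division rests on 6 laminin genes, and it was not tested. With unscaled reads no beta or gamma region remained.

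**Figure D2:**
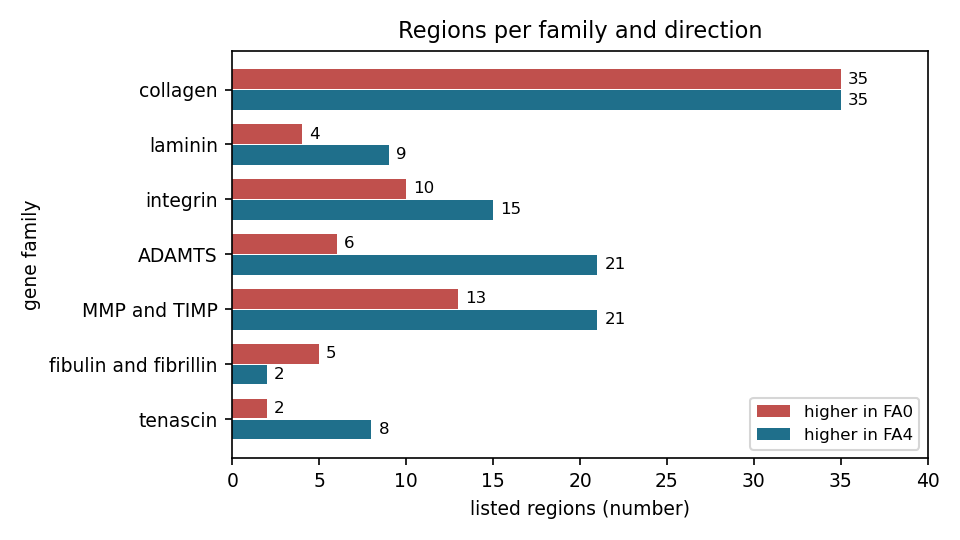
Number of listed regions per gene family, with a bar for each direction, at the scaling of the tables. Collagens are even at 35 and 35, ADAMTS genes (6 and 21) and tenascins (2 and 8) lie to the FA4 side (6 and 7, and 2 and 4, with FA0 scaled up by 25%), and fibulins and fibrillins (5 and 2) to the FA0 side.

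Integrins pair an alpha with a beta subunit. The 25 regions of 12 integrin genes included 10 with more FA0 signal and 15 with more FA4 signal, of which 7 and 1 passed the exact test, and with FA0 scaled up by 25% the counts turned to 10 and 5. Itgb1, the beta subunit shared by most matrix-binding integrins, had 6 regions. These were 1 with 1 FA4 read and 13 FA0 reads and 5 with 13, 14, 13, 14 and 20 FA4 reads and 0 FA0 reads. The last of these (chr8:128848601-128850680, 164 kb beyond the start) was the 1 FA4-higher integrin region that passed the test. Other listed regions within 1 Mb of Itgb1 or its own regions ran the same way, 2 higher in FA0 and 17 in FA4.

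Itga6, a laminin-binding subunit, had 2 regions in each direction within 33.4 kb of its start. Its introns held 25 FA4 reads and 2 FA0 reads at chr2:71792101-71793240, and 4 FA4 reads and 23 FA0 reads at chr2:71815161-71816520. So the direction changed within 1 gene, and only the second of these intron regions, with a ratio of 7.67 (2.62 to 30.5), passed the exact test. Itga9, which binds tenascin and other ligands, had 2 regions with 1 FA4 read each and 14 and 15 FA0 reads. Itga1 and Itga2, neighbouring collagen-binding subunits on chromosome 13, had 4 regions of 14 to 16 FA4 reads and 0 FA0 reads. Itgav, a subunit of the receptors that recognise the RGD sequence, had 0 FA4 reads and 12 FA0 reads in a region 2.74 kb upstream.

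ADAMTS genes had 27 regions, 6 on the FA0 side and 21 on the FA4 side (22.2% FA0, 8.62% to 42.3%, against 38.9% over all listed regions). Of these, 3 and 4 passed the exact test. With FA0 scaled up by 25%, 6 and 7 were left, and with at least 20 normalized counts 2 and 2. Adamts18 showed both directions within a short stretch of intergenic sequence on chromosome 8. There, a region at chr8:113968801-113970920 held 29 FA4 reads and 1 FA0 read (ratio 21.8, 3.61 to 888). A neighbour at chr8:113976061-113976980 held 4 FA4 reads and 24 FA0 reads (ratio 8, 2.75 to 31.7). Adamts2, which trims procollagen ends, held 7 FA4 reads and 27 FA0 reads in an intron (ratio 5.14, 2.18 to 14.0). Adamts16 held 18 FA4 reads and 0 FA0 reads in an intron. Adamts5, a protease of the cartilage proteoglycan aggrecan, had 5 regions with 13 to 16 FA4 reads and 0 FA0 reads, none of which passed the exact test. Within 1 Mb of Adamts5 or its regions, other listed regions ran the same way, 2 higher in FA0 and 17 in FA4.

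Adamtsl1, an ADAMTS-like gene whose product lacks the protease domain, had 8 regions, 7 higher in FA4 and 1 in FA0. The 7 held 13, 13, 19, 13, 13, 22 and 13 FA4 reads with 0 or 1 FA0 reads, and the other held 0 and 10. The tables put 5 of the 8 in intergenic sequence 51.8 kb to 196 kb before the start, yet all 5 lie inside the annotated gene, which spans 915 kb in RefSeq against 374 kb for the transcript used in the tables. Their class thus depends on the transcript chosen.

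MMPs and TIMPs had 34 regions, 13 higher in FA0 and 21 in FA4 (38.2% FA0, against 38.9% over all listed regions). All 4 TIMP regions were higher in FA0, and of the 30 MMP regions 9 had more FA0 signal and 21 more FA4 signal. With FA0 scaled up by 25%, 13 and 9 regions of the whole family were left. Timp1, Timp3 and Timp4 encode inhibitors that bind the active site of MMPs. Timp1 held 0 FA4 reads and 10 FA0 reads at chrX:20870041-20870960, Timp3 held 0 and 11 at chr10:86301861-86302500, and Timp4 held 1 and 15 at chr6:115253021-115253460 and 3 and 18 in a region 3.83 kb upstream. The 4 regions thus rest on 10 to 18 FA0 reads, and all but that of Timp1 passed the exact test. Each of these TIMP genes is nested in a synapsin gene, and all 4 regions lie inside it as well, in Syn1, Syn3 and Syn2 respectively. Synapsins are synaptic vesicle proteins, and hMeDIP reads do not show to which of the overlapping genes a signal belongs. Of all 186 member regions, 10 lay over another protein-coding gene.

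Membrane-type MMPs, which are anchored at the cell surface, had 5 regions higher in FA0 and 13 in FA4, and secreted MMPs 4 and 8. Mmp16 had the most regions of any member. Its 11 regions, all higher in FA4, held 13 to 21 FA4 reads and 0 or 1 FA0 reads, 1 was inside the gene, and the farthest lay 758 kb away. None of the 11 passed the exact test. Other listed regions within 1 Mb were 3 higher in FA0 and 5 in FA4.

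Mmp24, a membrane-type MMP, had regions of both directions. Its promoter region (chr2:155776141-155777780) held 31 FA4 reads and 4 FA0 reads (ratio 5.81, 2.06 to 22.7). Its exon region (chr2:155815261-155816260) went the other way, with 2 FA4 reads and 19 FA0 reads (ratio 12.7, 3.06 to 112). An upstream region with 1 and 16 reads and an intron region with 1 and 14 were also higher in FA0, and a second intron region with 19 and 1 was higher in FA4.

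Mmp2, the gelatinase that cuts type IV collagen, had a promoter region (chr8:92828541-92829340) with 5 FA4 reads and 21 FA0 reads (ratio 5.60, 2.06 to 19), and an intron region with 7 and 26. Mmp17 held 6 FA4 reads and 23 FA0 reads in an exon region (chr5:129607561-129608700), and Mmp15 held 1 and 17 in a region beyond its 3′ end (ratio 22.7, 3.55 to 947). The cluster of Mmp1a, Mmp1b, Mmp3 and Mmp13 on chromosome 9, which holds interstitial collagenases and stromelysin, had 2 regions higher in FA0 and 7 in FA4. Within 1 Mb of each gene or its regions, 5 or 6 other listed regions were higher in FA0 and 16 to 18 in FA4. These counts overlap and include regions of the partner genes. The most FA4 reads there lay upstream of Mmp1b, with 31 against 2 FA0 reads (chr9:7403421-7405700, ratio 11.6, 2.96 to 100). Mmp3 held 22 FA4 reads and 0 FA0 reads in a nearby intergenic region and 0 and 11 in another.

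Fibulins and fibrillins include components of elastic fibres and microfibrils. They had 5 regions higher in FA0 and 2 in FA4 (71.4% FA0, 29.0% to 96.3%, against 38.9% over all listed regions). Fbln7 had the smallest exact p of all members higher in FA0 (1.91e-09), from 1 FA4 read and 27 FA0 reads in its promoter region (chr2:128865001-128865760, ratio 36, 5.93 to 1470). Fbln2 had 3 regions higher in FA0 inside the gene, with 1, 3 and 3 FA4 reads against 13, 18 and 22 FA0 reads. Its 2 regions beyond the 3′ end held 13 and 14 FA4 reads and 0 FA0 reads, so direction and side of the gene end went together for these 5. Fbn2, a fibrillin of embryonic microfibrils, held 0 FA4 reads and 14 FA0 reads in an intron.

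Tenascins are matrix glycoproteins that modulate adhesion, and of their 10 regions 2 had more FA0 signal and 8 more FA4 signal, or 2 and 4 with FA0 scaled up by 25%. All 6 Tnc regions were higher in FA4, with 13, 14, 14, 18, 15 and 13 FA4 reads and 0 FA0 reads, and 5 of them lay 37.3 kb to 346 kb before the start. Of these, 1 passed the exact test (chr4:64265141-64266700). Other listed regions within 1 Mb of Tnc were 7 higher in FA0 and 2 in FA4. Tnr held 23 FA4 reads and 1 FA0 read in an intergenic region (ratio 17.3, 2.80 to 711) and 0 and 10 in an intron, and Tnxb held 0 and 12 in an intron.

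**Figure D3:**
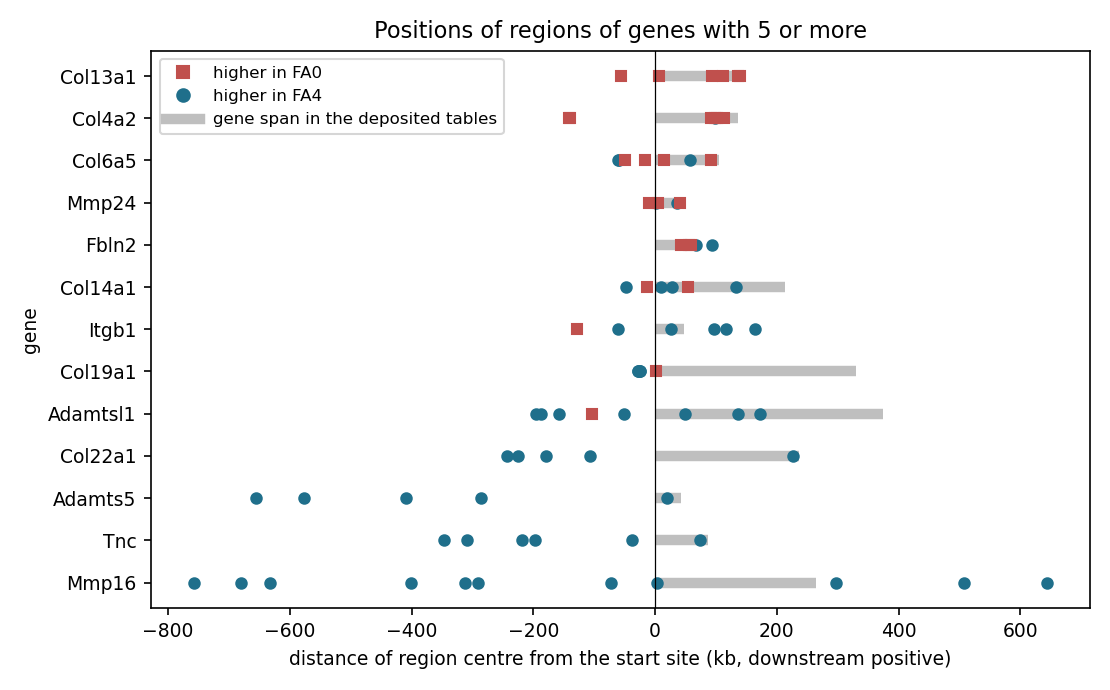
Distance of each region centre from the start of its gene in kb (downstream positive), for the 13 members with 5 or more regions, with the gene span of the tables as a bar and the colour giving the library with more signal. The 6 Col13a1 regions are all higher in FA0, while the 11 Mmp16 and 6 Tnc regions are all higher in FA4 and lie mostly outside the gene.

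Promoter and exon regions leaned to FA0, but with p at 1e-05 the promoter regions left were 1 in FA0 and 1 in FA4, and with unscaled reads they were 1 and 2, with 1 and 1 in exons. At promoters, 6 of 9 were higher in FA0 (66.7%, 29.9% to 92.5%), and 61.0% of all 975 listed promoter regions were. In exons, 5 of 6 were higher in FA0, and 62.5% of all 427 listed exon regions were. The interval of each member share holds the share over all regions. The exact test was passed by 5 of the 6 promoter regions higher in FA0 (78.3% over all listed promoters higher in FA0) and by 1 of the 3 higher in FA4 (24.2%). All 5 exon regions higher in FA0 passed it, against 74.6% of all listed regions higher in FA0. The share for exons alone was not computed. In 3 of these exon regions, those of Fbln2, Mmp17 and Mmp24, the centre lay 93.9% to 99.7% of the way along the gene.

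**Figure D4:**
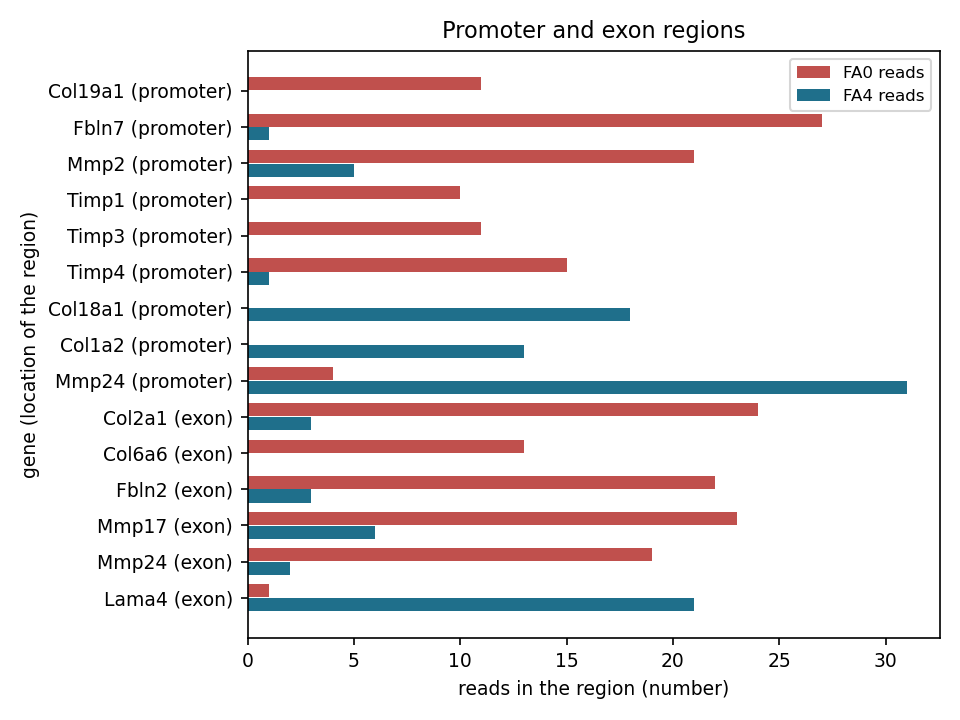
Reads in FA4 and in FA0 for the 15 promoter and exon regions, 1 pair of bars per region, without error bars. The FA0 value is the higher in 11 of the 15, and Fbln7 has the most FA0 reads, with 1 FA4 read and 27 FA0 reads.

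Introns held 38.2% (31.2% to 45.6%) of the 186 regions, against 30.4% of all listed regions, and intergenic sequence held 42.5% (35.3% to 49.9%), against 49.2%. The 147 annotated members had a median span of 56.9 kb, against 17.3 kb for all protein-coding genes. These shares were not adjusted for gene length. Among the regions higher in FA0, 48.0% were in introns (33.9% over all) and 20% in intergenic sequence (38.9% over all). Among those higher in FA4 the intergenic share was 57.7%, against 55.7% over all. Read by class, 19% (11.0% to 29.4%) of the 79 intergenic member regions were higher in FA0, against 30.8% of all intergenic regions, and 50.7% of the 71 intron regions, against 43.4%. Several of these regions share a gene, so the intervals, which treat regions as independent, are too narrow.

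**Figure D5:**
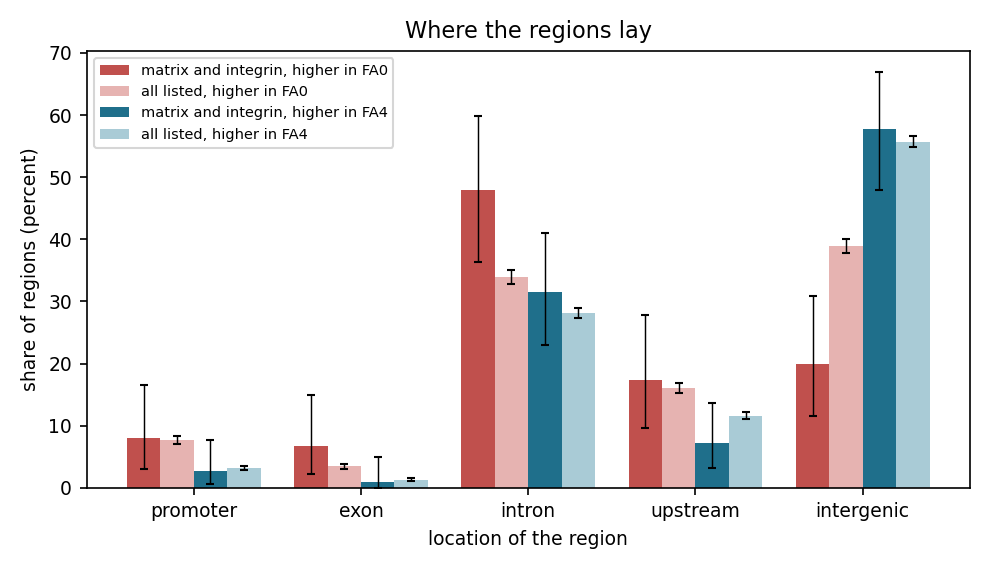
Share of regions in percent (y axis) in each location class (x axis), with 95% exact intervals, for members and for all listed regions higher in FA0 and in FA4. Among regions higher in FA0, 20% of member regions and 38.9% of all regions are intergenic.

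FA0-higher members had shorter distances to their start sites. Their median distance was 33.4 kb, against 67.1 kb for FA4-higher members, and 20% and 41.4% lay over 100 kb away. Over all listed regions the values were 27.8 kb and 62.8 kb, and 22.4% and 39.8%, so the members followed the general pattern. Median lengths were 720 bp and 1060 bp (760 bp and 1080 bp over all). Inside genes, the 41 FA0-higher regions had a median position 62.2% along the gene, against 48.0% for all FA0-higher regions in genes, and the 36 FA4-higher regions 47.9%, against 45.8%.

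Members with a listed region were long genes, with a median span of 87.2 kb, against 35.8 kb for the 78 without. Counted over all 147 members, 90 regions lay wholly inside the 15.0 Mb of their annotated gene spans, or 6.02 regions per Mb, against 6.43 for all protein-coding genes. Of the 69 members with a region, 23 had regions higher in FA0 alone, 26 in FA4 alone and 20 in both (33.3%, 37.7% and 29.0%, against 35.0%, 40.7% and 24.3% of all genes). Members with 5 or more regions made up 18.8%, against 8.88% of all genes, without adjustment for gene length.

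Other matrix and adhesion genes, 87 in a list of known matrix components and integrin-linked proteins, had 80 regions of 37 genes, 39 higher in FA0 and 41 in FA4 (48.8%, against 38.9% over all listed regions). The exact test was passed by 32 and 7 of these, with 74.6% and 26.2% of all listed regions as background. This list, too, was chosen with earlier results of these data known. Cytoplasmic integrin adhesion proteins had 16 regions higher in FA0 and 7 in FA4, and 13 and 0 passed. Among them, the scaffold gene Pxn had 3 regions with 10, 5 and 4 FA4 reads against 43, 21 and 21 FA0 reads. The kinase gene Src had 4 with 4, 2, 6 and 6 against 20, 17, 26 and 23. In both genes every listed region was higher in FA0. Other genes of this group went to FA4 or both ways. Fermt1 had 20 and 15 FA4 reads against 1 and 0 FA0 reads in its 2 regions, Bcar1 had 16 and 0 in its region, and Tln2 had 2 regions in each direction. Tln1, which links integrins to actin, held 0 FA4 reads and 17 FA0 reads in its promoter region, at least 7.56-fold higher in FA0, and Parvb held 5 and 23 in its promoter region (6.13, 2.28 to 20.7).

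Among matrix components of that list, Hspg2, the basement membrane proteoglycan perlecan, had 4 regions higher in FA0, with 4, 2, 19 and 5 FA4 reads against 20, 21, 47 and 24 FA0 reads, of which the regions with 21 and 47 overlap and share reads. Matn1, a cartilage matrix protein, held 3 and 22 in its promoter region (9.78, 2.94 to 51.0), while an upstream region with more reads, 42 and 9, was higher in FA4 (3.5, 1.68 to 8.18). The promoter regions of the proteoglycan gene Dcn (17 and 0 reads, at least 4.25-fold) and of the link protein gene Hapln2 (14 and 0, at least 3.50-fold) were higher in FA4. Collagen processing genes had 1 region higher in FA0 and 9 in FA4, of which 6 belonged to Tll1, a procollagen protease. As in the families above, the split by role was not tested.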

How the data were processed

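Genomic DNA of Sv129 mESCs from control medium (FA4, 4 mg/L folate) and folate-free medium (FA0, 0 mg/L) was immunoprecipitated for 5hmC and sequenced, with 1 library per condition. Per the submitters' processing notes, cutadapt 1.9.1, Bowtie2 2.2.4 and build mm10 were used. The program that called differential regions is not given in the sources used here, and the labels and the methods name different kits and fragment sizes. The authors deposited 4 tables of listed regions, and the 2 whole-genome tables were used, 1 for each direction. Their values are a normalized read count per library, a signal that the authors scaled by 1 factor per library. Division by 0.866 (FA4) and 1.15 (FA0) gave whole reads within 0.00576 (tolerance 0.02). The total depth of the libraries is not known here. The listed regions of members held 6583 FA4 and 2226 FA0 reads. A further 8 columns of per-sample averages and the columns with the authors' own folds and p-values, which hold their comparison, were not used.

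Regions were taken once per symbol, with location and start site as deposited. The null share of the exact binomial test was 57.1% of reads in FA4, which is the authors' scaling. Gene spans were from the GRCm38.p6 table, in which all 69 members were found. Named genes were every member with a promoter or exon region, the 2 symbols per family and direction with the smallest exact p, the 5 with most regions, the member regions with most reads, and promoter genes of the other matrix genes. Further genes were named after their values were seen, such as the members Adamts5, Col6a1, Fbn2, Itga1, Itga2, Itgav and Lamb1. Of the other matrix genes, Pxn, Src, Fermt1, Bcar1, Tln2, Hspg2 and Tll1 were among those named in this way. Members and lists were chosen with earlier results of these data known. Alternatives were other tests, scalings, count minimums and sets of regions. Calculations were tested on simulated data. Scripts ran under Python 3.11.15 with pandas 2.3.3, numpy 2.4.6 and scipy 1.17.1, and plots under matplotlib 3.10.9.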

Additional observations from a re-analysis of the deposited data

How the results depend on the processing

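No paired analysis was possible because there is 1 library per condition, and for the same reason no replicate was left out. Unlisted regions have no values here, so each setting removed regions and added none.

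The majority direction of the members that were left depended on the test and the scaling, as that of all listed regions did. For the scaling, the direction of each shift was fixed by this removal. As listed, 75 member regions lay on the FA0 side and 111 on the FA4 side (40.3% FA0). With the exact test, FA4-higher regions fell to 25 and the FA0 share was 69.9% (64.4% over all regions). With p at 1e-05 there were 24 and 24 (50%, 41.1% over all), and with at least 20 normalized counts 32 and 11 (74.4%, 72.1% over all). Scaling FA0 up by 25% left 49 FA4-higher regions (60.5%, 58.2% over all), and scaling FA4 up by 25% left 39 FA0-higher regions (26.0%, 21.0% over all). Unscaled reads gave 9 and 59 (13.2%, 9.67% over all). Restricted to regions inside the gene or within 10 kb of its start, 41 were FA4-higher (57.3%, 47.1% over all) and the promoter share was 9.38%. Counts stayed within 1.5 times without chromosomes 1 and 8, without Adamtsl1, without Col19a1 and after merging within 1000 bp.

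Every listed region had at least a 2-fold difference, so no scaling tried here was large enough to turn the direction of a single region. Of the 44 named regions, the exact test kept 23 of 25 on the FA0 side and 12 of 19 on the FA4 side, and unscaled reads kept 5 and 15. Under unscaled reads 0 TIMP regions remained, and 3 of the 9 FA0-higher regions of Col4a1 and Col4a2 did. Intergenic member regions had the lowest FA0 share of the 5 location classes as listed, with the exact test and under both changes of scaling.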
